A study of Mus musculus with 6 samples.

Results

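Integrins and the other receptors by which cells hold the matrix were examined as 34 genes, chosen by name from their families. They are 18 integrin alpha chains, 8 integrin beta chains, the discoidin receptors Ddr1 and Ddr2, the hyaluronan receptor Cd44, the 4 syndecans and dystroglycan (Dag1). The deposited table lists 53342 Ensembl identifiers, and 24534 of them, with all 34 receptors, passed the filter on low counts. Pulp was taken from teeth of 3-month-old C57BL/6 mice of both genotypes, 3 WT samples (numbers 2, 4 and 5) and 3 Mmp13-/- samples (numbers 1, 2 and 6), and the mutants differ from WT by loss of Mmp13, which encodes collagenase-3. No other allele or agent is named for either genotype. The tooth differs between sources, molar in the labels and incisor in the study's methods, as does the RNA extraction (column kit or TRIzol). Of the sample titles, those of WT name the molar and those of Mmp13-/- name no tooth.

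Integrins are made of an alpha and a beta chain, and the pairing sets which ligand is bound: collagens, laminins, proteins with an RGD motif such as fibronectin and osteopontin, or counter-receptors on other cells. Inside the cell, talin and kindlin bind the beta tail and link it to actin. Discoidin receptors are tyrosine kinases for collagen, syndecans are heparan sulfate proteoglycans that act beside integrins, and dystroglycan joins laminin, perlecan and agrin to dystrophin. In teeth, these receptors are known for holding odontoblasts and epithelium to their matrices. MMP13 cleaves fibrillar collagens, which are ligands of several of them.

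Library totals were 28442936 to 29980236 counts in WT (median 29758771) and 21561420 to 26547121 in Mmp13-/- (median 26301896), without overlap. Mmp13 itself stood at 827 to 1139 counts in WT, against 10.2, 32.9 and 40.4 in Mmp13-/-. The 6 genes sharing sequence with the gene of highest count in any sample, called satellite-matching here, held 0.0291% to 0.0395% of WT counts. In Mmp13-/- their share was 5.28% in sample 1, 9.30% in sample 2 and 41.3% in sample 6. Every Mmp13-/- sample was far above WT, and sample 6 was the furthest. The 1459 odorant and vomeronasal receptor genes, known for their use in olfactory tissue, summed to 17.9 to 20.8 CPM (counts relative to the library total) in WT and 308 to 1198 in Mmp13-/-. In 11057 genes with a mean log2 CPM above 3, the fold change fell with the GC content of the longest transcript (Spearman rho -0.70 across genes, which share the same 6 libraries), and receptor changes are therefore also given after correcting every sample for GC content. This GC trend, the satellite share and the odorant receptor level all run with genotype and cannot be told apart from the loss of Mmp13.

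The tissue label was checked against marker lists, whose summed levels are normalized counts (counts scaled to a common library). Odontoblast markers, which include Dspp, summed to 43193 to 83856 in WT and 69074 to 101429 in Mmp13-/-, and were detected in every sample. Of these 5 markers, 2 were higher and 1 lower. Skeletal muscle markers summed to 1161656 to 1394392 in WT and 210949.8 to 518989 in Mmp13-/-, and 6 of 8 were lower. The skeletal muscle sum was above the odontoblast sum in every sample. Epithelial markers summed to 51993 to 109324 in WT and 26311 to 42452 in Mmp13-/-, with 2 of 5 lower, and Schwann cell markers to 1745 to 7427 in WT and 1707 to 2111 in Mmp13-/-, with 2 of 5 lower. Of 5 endothelial markers, summing to 6137 to 7228 in WT and 4232 to 5939 in Mmp13-/-, 3 were lower, and of 5 mural markers, summing to 17493 to 19271 in WT and 12509.5 to 16535 in Mmp13-/-, 2 were higher and 3 lower. After GC correction the counts were 5 of 8 lower for skeletal muscle, 0 lower and 2 higher for epithelium, 0 lower for Schwann cells, 1 higher and 1 lower for endothelium, and 2 higher and 0 lower for mural cells. After that correction 2 of 5 odontoblast markers were higher and 0 lower. No marker was at 0 in all samples. In bulk tissue, fewer cells of a type and less RNA per cell cannot be told apart.

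Promoters of 4 receptors are shown because they pair members that moved oppositely (Itgb1, higher, and Sdc3, lower) or that lie side by side on chromosome 7 and differed in their test (Itgam and Itgax). Each sequence is 300 bases, from 250 before to 50 after the RefSeq start (GRCm38.p6, all on the plus strand): chr8:128685404-128685703 for Itgb1, chr4:130792287-130792586 for Sdc3, chr7:128062390-128062689 for Itgam and chr7:128129300-128129599 for Itgax. Capitals mark the GC box GGGCGG, bound by SP1 family factors, in the first pair, and the purine-rich motif GAGGAA, a core of PU.1 sites in myeloid genes, in the second pair, each on either strand.
Itgb1: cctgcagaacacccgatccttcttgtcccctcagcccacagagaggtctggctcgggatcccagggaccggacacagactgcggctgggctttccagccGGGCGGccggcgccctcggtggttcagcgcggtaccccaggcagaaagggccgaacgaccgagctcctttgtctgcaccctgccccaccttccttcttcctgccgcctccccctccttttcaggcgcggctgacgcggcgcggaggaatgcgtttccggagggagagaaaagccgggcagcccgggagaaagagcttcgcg
Sdc3: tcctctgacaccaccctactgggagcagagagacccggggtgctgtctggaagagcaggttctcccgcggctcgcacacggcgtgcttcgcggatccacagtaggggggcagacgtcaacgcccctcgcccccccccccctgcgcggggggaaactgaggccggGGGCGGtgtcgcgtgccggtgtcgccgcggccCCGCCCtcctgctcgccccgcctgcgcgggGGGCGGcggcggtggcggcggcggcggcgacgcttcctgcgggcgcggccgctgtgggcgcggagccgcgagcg
Itgam: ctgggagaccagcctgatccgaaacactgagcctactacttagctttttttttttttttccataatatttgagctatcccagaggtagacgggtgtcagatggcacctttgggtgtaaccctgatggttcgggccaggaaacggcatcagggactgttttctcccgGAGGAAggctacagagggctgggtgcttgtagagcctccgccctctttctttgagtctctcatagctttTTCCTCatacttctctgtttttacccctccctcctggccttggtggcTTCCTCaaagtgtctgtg
Itgax: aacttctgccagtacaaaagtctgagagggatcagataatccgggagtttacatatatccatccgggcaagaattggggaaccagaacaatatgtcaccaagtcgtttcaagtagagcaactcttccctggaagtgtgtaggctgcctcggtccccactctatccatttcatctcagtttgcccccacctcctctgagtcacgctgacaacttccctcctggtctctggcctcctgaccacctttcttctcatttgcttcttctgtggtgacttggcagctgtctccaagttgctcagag
GGGCGG occurred 1 time in the Itgb1 promoter and 3 times in that of Sdc3, and the promoters held 67.3% and 77.7% G and C. GAGGAA occurred 3 times in the Itgam promoter and 0 times in that of Itgax, both near 50% GC. Among the 25 receptors with a promoter sequence, 14 held GGGCGG and 11 held GAGGAA, against 35.7% and 28.3% of all 32851 promoters of that length. These are matches of letters and no binding was measured.

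Of the 34 receptors, 11 were higher and 13 lower in Mmp13-/- pulp at an adjusted p under 0.05, and 10 did not pass. These are 32.4% and 38.2% of the receptors, where 27.3% of all genes tested were higher, 24.3% lower and 51.6% either. Over 2-fold, 5 receptors were higher (background 20.4%) and 8 lower (background 9.68%). The 3 Mmp13-/- values lay above all 3 WT values for 12 receptors and below them for 13 (background 31.8% and 29.1%). The median log2 fold change was 0.02 over the receptors and 0.10 over all genes tested. Leaving out Mmp13-/- sample 6 gave 10 higher and 11 lower.

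After GC correction 10 receptors were higher and 5 lower, where the background was 23.8% higher, 13.1% lower and 36.9% either. Over 2-fold, 6 were higher (background 16.4%) and 0 lower (background 3.26%). 11 receptors passed in the same direction with and without the correction: Itgb1, Itga2, Itga4, Itgad, Itgam and Itgb2 higher, and Itga7, Itgb6, Ddr1, Sdc4 and Dag1 lower. 13 passed only without it and 4 (Itga2b, Itgb3, Itgal and Itgb7) only with it. The share of all genes tested that passed in both settings is not given here, so whether these counts are unusual is not known. Across the 34 receptors Pearson's r between GC content and fold change was -0.63 and Spearman's rho -0.62, and after correction -0.02 and -0.11. Of 11 receptors over 55% GC, 9 were lower and 0 higher, and of 10 under 45%, 8 were higher and 1, Itgb6, lower. Abundant genes in general went the same way. Their median log2 fold change was -0.89 from 55.7% to 58.0% GC and -1.12 above that. It was 0.80 up to 41.6% GC and 0.44 from there to 44.1%. The pattern is thus not particular to the receptors.

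**Figure D1:**
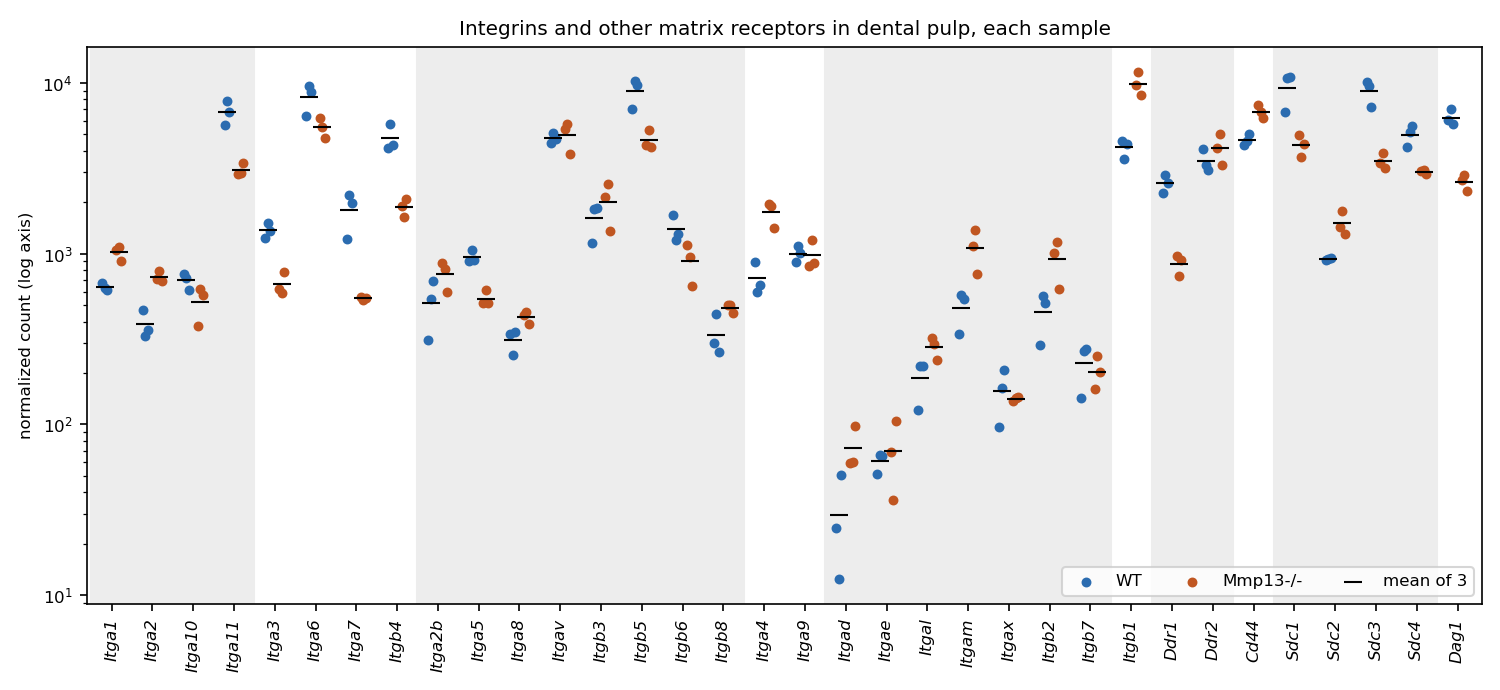
Normalized counts (vertical log axis) of the 34 receptor genes in each of 3 WT (blue) and 3 Mmp13-/- (orange) samples, with the mean of 3 as a black dash and shading by ligand group. Itgb1, Itga4 and Itgam sit above WT in every Mmp13-/- sample, and the 4 laminin-binding chains sit below it.

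**Figure D2:**
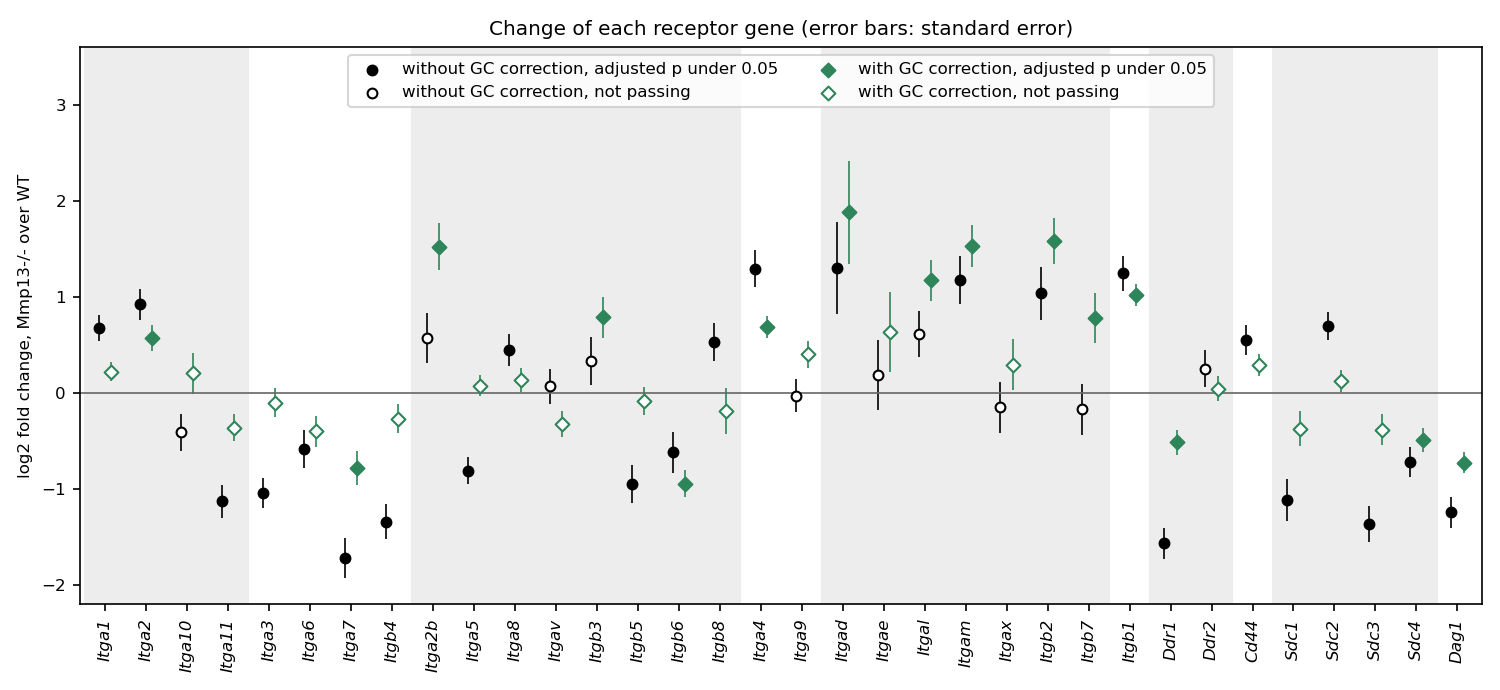
Log2 fold change of Mmp13-/- over WT for each receptor gene with its standard error, without (black circles) and with (green diamonds) correction for GC content; filled symbols have an adjusted p under 0.05. With the correction most values under zero move up towards zero, and Itgam and Itgb2 also move up, whereas Itga4, Sdc2, Itga1 and Itgb6 move down.

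**Figure D3:**
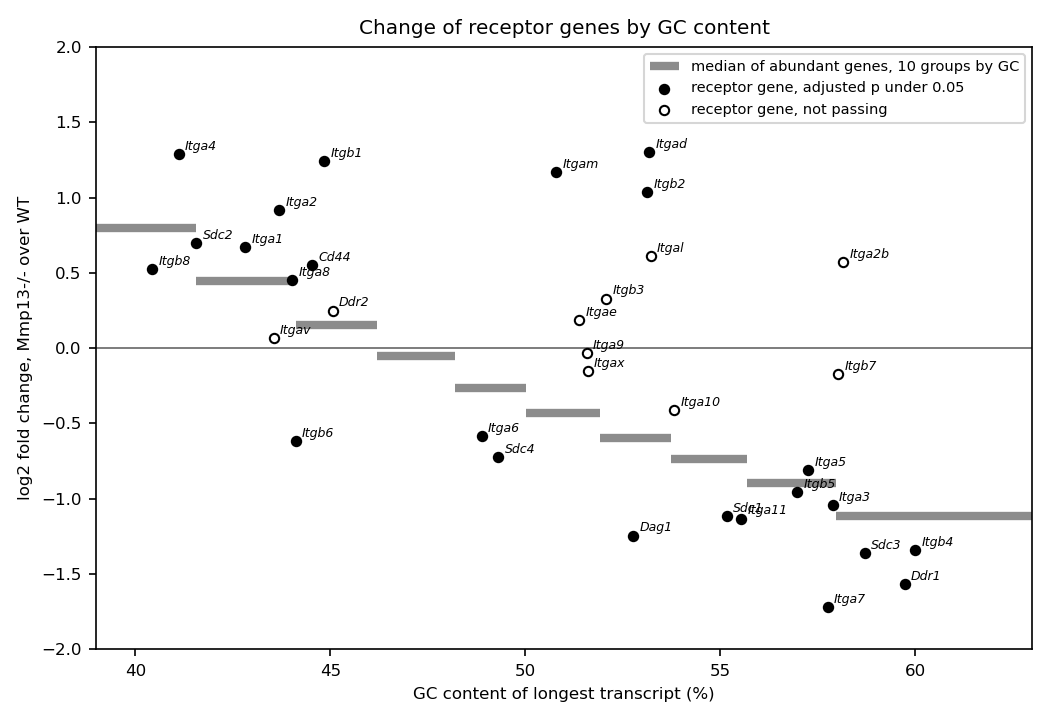
Log2 fold change of Mmp13-/- over WT against the GC content of the longest transcript in percent for the 34 receptor genes; grey bars are medians of abundant genes in 10 groups by GC. Itgb1, Itgam and Itgb2 lie above the bars, and Dag1, Itga7 and Itgb6 below them.

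Itgb1, the beta chain shared by the largest group of integrins, was over 2-fold higher. It lies at chr8:128685654-128733200 (GRCm38, GENCODE M21), and its normalized counts were 4587, 3592 and 4407 in the 3 WT samples against 9744, 11535 and 8475 in Mmp13-/-. The genotypes did not overlap, and the lowest Mmp13-/- sample was above the highest WT sample. The log2 fold change was 1.24 ± 0.19 (SE), with an edgeR adjusted p of 0.00056, and after GC correction 1.02 ± 0.12, with an edgeR adjusted p of 0.000688. The median over abundant genes of like GC content was 0.15.

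The alpha chains that pair with beta1 went in both directions. The 12 partners (the 4 collagen-binding alphas, Itga3, Itga6, Itga7, Itga5, Itga8, Itgav, Itga4 and Itga9) included 4 that were higher and 5 that were lower (background 27.3% and 24.3%). After GC correction Itga2 and Itga4 were higher and Itga7 lower (background 23.8% and 13.1%). Itga1, Itga8, Itga11, Itga3, Itga6 and Itga5 no longer passed. In normalized counts per kilobase of exon, the ratio of Itgb1 to the sum of the 12 partners was 0.345, 0.206 and 0.282 in WT, against 0.926, 1.06 and 0.873 in Mmp13-/-. The log2 ratio was 1.81 higher in Mmp13-/-, and the two-sided exact permutation p was 0.1, the smallest that 3 against 3 samples allow. These ratios were not corrected for GC content, and the cause of the difference was not tested.

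**Figure D4:**
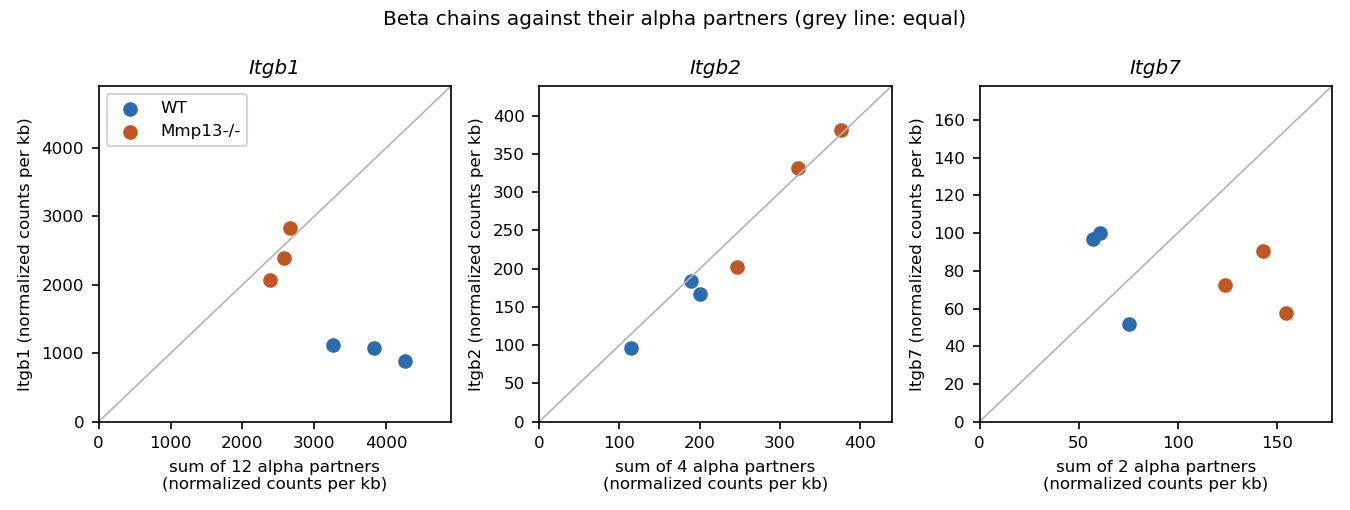
Normalized counts per kilobase of exon of Itgb1, Itgb2 and Itgb7 (vertical axes) against the sum of their alpha partners (horizontal axes) in WT (blue) and Mmp13-/- (orange) samples, with a grey line of equality. Mmp13-/- samples lie near the line for Itgb1, where WT samples lie far under it; for Itgb2 both genotypes follow the line; for Itgb7 the Mmp13-/- samples lie under it.

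The collagen-binding alpha chains moved in both directions. Itga2, the alpha2 chain best known from platelets and epithelium, was 469, 331 and 357 in the 3 WT samples against 710.0, 789 and 688 in Mmp13-/-, without overlap. Its log2 fold change was 0.92 ± 0.16 (edgeR adjusted p 0.00141) and 0.57 ± 0.13 after GC correction (edgeR adjusted p 0.0113). Itga1, which favours basement membrane collagen, was higher by 0.67 ± 0.14 (edgeR adjusted p 0.00265), and with the correction stood at 0.22 ± 0.10 (edgeR adjusted p 0.114).

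Itga11, a fibroblast receptor for fibrillar collagen, was the highest of the 4 by level per length in WT. It counted 5703, 7870.1 and 6796 in the 3 WT samples against 2920.2, 2969 and 3401 in Mmp13-/-, without overlap. The log2 fold change was -1.13 ± 0.17 (edgeR adjusted p 0.000616), and after GC correction -0.36 ± 0.14 (edgeR adjusted p 0.0819), where the call was lost. Itga10, a cartilage collagen receptor, did not pass (-0.41 ± 0.19, edgeR adjusted p 0.0981), and its sign turned with the correction (0.20 ± 0.21).

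All 4 laminin-binding chains were lower (background 24.3%), but after GC correction only 1, Itga7 (background 13.1%). Itga7, the laminin receptor alpha chain of skeletal muscle, was 1217, 2197 and 1990.3 in the 3 WT samples against 554, 536 and 551 in Mmp13-/-. The Mmp13-/- values lie within a narrow band under the lowest WT sample. The log2 fold change was -1.72 ± 0.21 (edgeR adjusted p 0.000201), against a median of -0.89 for genes of like GC content, and after the correction -0.79 ± 0.18 (edgeR adjusted p 0.0102). The skeletal muscle markers above moved the same way, and their part in this result was not tested.

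Itgb4, the hemidesmosome beta chain of epithelium, was 4162, 5754 and 4342 in the 3 WT samples against 1892, 1629 and 2101 in Mmp13-/-, a log2 fold change of -1.34 ± 0.18 (edgeR adjusted p 0.000313). Itga3, which joins beta1 as an epithelial laminin receptor, fell by 1.04 on the log2 scale (SE 0.16, edgeR adjusted p 0.000565). Itga6, the partner of Itgb4, stood at -0.59 ± 0.20 (edgeR adjusted p 0.0322), and the adjusted p was 0.113 and 0.0825 without WT sample 4 or 5, and 0.0519 and 0.0571 without Mmp13-/- sample 2 or 6. After the GC correction these 3 were at -0.27, -0.10 and -0.40, and none passed. The epithelial sum, which is carried by Krt14 and Krt5, was lower in Mmp13-/- as well, whereas Epcam was 221 to 278 in WT and 258 to 378 in Mmp13-/-, and after GC correction 0 of the 5 epithelial markers were lower and 2 higher. Their part in these results was not tested.

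The RGD-binding chains were mixed, with 2 higher, 3 lower and 3 not passing (25% and 37.5%, background 27.3% and 24.3%). After GC correction 2 others, Itga2b and Itgb3, were higher and 1, Itgb6, lower (background 23.8% and 13.1%). Itgb5, which pairs with alpha v and binds vitronectin, was 6993, 10203 and 9696 in the 3 WT samples against 4317, 5329 and 4221 in Mmp13-/-. The groups did not overlap, with a log2 fold change of -0.96 ± 0.20 (edgeR adjusted p 0.00294) that went to -0.09 ± 0.14 with the GC correction (edgeR adjusted p 0.671). Itga5, the fibronectin receptor alpha chain, stood at -0.81 ± 0.14 (edgeR adjusted p 0.00128) and at 0.07 ± 0.11 with it.

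Itgb6, an epithelial chain that activates latent TGF-beta and is known in ameloblasts, was 1678, 1199 and 1309 in the 3 WT samples against 1116, 956 and 645 in Mmp13-/-. Each Mmp13-/- sample lay below the lowest WT sample, although its transcript is poor in GC, and the log2 fold change was -0.62 ± 0.21 (edgeR adjusted p 0.0313), going to -0.95 ± 0.14 after the correction (edgeR adjusted p 0.0021). The uncorrected edgeR adjusted p was 0.0833 without WT sample 2 and 0.0593 without Mmp13-/- sample 6. Itgb8, also an activator of TGF-beta, was higher at 0.53 ± 0.20 (edgeR adjusted p 0.0467) and turned to -0.19 ± 0.24 with the correction. Itga8, a mesenchymal chain that binds nephronectin, was higher at 0.45 ± 0.17 (edgeR adjusted p 0.0444) and stood at 0.13 ± 0.13 with it. Without any 1 sample other than WT sample 4 for Itgb8, and other than Mmp13-/- sample 6 for Itga8, these 2 calls were lost (edgeR adjusted p up to 0.280 and 0.228).

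Itgav, the alpha v chain shared by several RGD receptors, did not pass (0.07 ± 0.18, edgeR adjusted p 0.777, or -0.33 ± 0.13 with the correction). Itga2b and Itgb3, which form the platelet fibrinogen receptor, were at 0.57 ± 0.26 and 0.33 ± 0.25 (edgeR adjusted p 0.0956 and 0.296). With the GC correction they were at 1.52 ± 0.24 and 0.78 ± 0.21 (edgeR adjusted p 0.00266 and 0.0201), both passing. Platelet markers summed to 568 to 711 in WT and 1463 to 2148 in Mmp13-/-, with 4 of 6 higher, and 5 of 6 after GC correction.

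Itga4, whose chain with beta1 or beta7 binds VCAM1 and fibronectin on leukocytes and some stromal cells, was 896, 600.1 and 654 in the 3 WT samples against 1952, 1894 and 1410.2 in Mmp13-/-. All Mmp13-/- samples were above all WT samples, with a log2 fold change of 1.29 ± 0.19 (edgeR adjusted p 0.000537). The median for genes of like GC content was 0.80, and the corrected change was 0.68 ± 0.11 (edgeR adjusted p 0.00323). Itga9, which binds tenascin-C and osteopontin, did not pass (-0.03 ± 0.17, edgeR adjusted p 0.889, or 0.40 ± 0.14 with the correction).

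Among the 7 leukocyte chains 3 were higher and 0 lower (background 27.3% higher), and after GC correction 5 were higher (background 23.8%). Itgam, the CD11b chain of granulocytes and macrophages, was 337, 570.3 and 540.4 in the 3 WT samples against 1110.5, 1382 and 762 in Mmp13-/-, without overlap. Its log2 fold change came to 1.17 ± 0.25 (edgeR adjusted p 0.00344), and 1.52 ± 0.22 with the correction (edgeR adjusted p 0.00163). The table gives the symbol Itgam to 2 identifiers. One is at 0 in all samples, and the other, which holds these counts at chr7:128062683-128128160, is named Gm49368 in GENCODE M21 and overlaps the first, so the split of reads between them is uncertain.

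Itgb2, the CD18 chain that pairs with Itgam, Itgal, Itgax and Itgad, was 292, 561 and 511 in the 3 WT samples against 1011, 1165 and 619 in Mmp13-/-. In both genes Mmp13-/- samples 1 and 2 were highest and sample 6 lay closest to WT, still above it. The log2 fold change was 1.04 ± 0.28 (edgeR adjusted p 0.0108), and 1.58 ± 0.24 with the correction (edgeR adjusted p 0.00227). The ratio of Itgb2 to its 4 partners per kilobase was 0.839, 0.973 and 0.835 in WT, against 1.03, 1.02 and 0.822 in Mmp13-/-. The difference in log2 ratio was 0.11, with an exact two-sided permutation p of 0.4, where the smallest possible is 0.1.

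Itgal, the CD11a chain of lymphocytes, was 121, 220.0 and 219.8 in the 3 WT samples against 321, 295 and 238 in Mmp13-/-, above WT in all 3 samples but not passing (0.61 ± 0.24, edgeR adjusted p 0.0562). With the correction it passed at 1.17 ± 0.21 (edgeR adjusted p 0.00464). Itgax, the CD11c chain of dendritic cells, overlapped between genotypes at 96.5, 163 and 209 in the 3 WT samples against 137, 142 and 144 in Mmp13-/- (-0.15 ± 0.26, edgeR adjusted p 0.659, or 0.29 ± 0.27 with the correction).

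Itgad, the CD11d chain, is the least abundant of the 34. Its unscaled counts were 26.2, 13.3 and 50.7 in the WT samples against 68.3, 65.6 and 62.1 in Mmp13-/-, with a log2 fold change of 1.30 ± 0.47 (edgeR adjusted p 0.042). At the rate of counts per kilobase seen in the olfactory receptor genes, 6.79, 7.92 and 21.65 of these Mmp13-/- counts would be background. With that subtracted the log2 fold change was 1.14 ± 0.46 (edgeR adjusted p 0.0665). On unsubtracted counts the edgeR adjusted p was 0.112 without WT sample 2, 0.125 without WT sample 4 and 0.112 without Mmp13-/- sample 6.

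Itgae, the CD103 chain of intraepithelial lymphocytes, did not pass (0.18 ± 0.37, edgeR adjusted p 0.701, or 0.64 ± 0.42 with the correction). Itgb7, the gut-homing beta chain that pairs with Itga4 and Itgae, overlapped between genotypes (-0.17 ± 0.27, edgeR adjusted p 0.616), and passed at 0.78 ± 0.26 with the correction (edgeR adjusted p 0.0454). Its ratio to these 2 partners per kilobase was 0.687, 1.69 and 1.64 in WT and 0.374, 0.630 and 0.587 in Mmp13-/- (log2 difference -1.26, exact two-sided permutation p 0.1). This ratio was not corrected for GC content. After correction the log2 fold changes of Itgb7, Itga4 and Itgae were 0.78 ± 0.26, 0.68 ± 0.11 and 0.64 ± 0.42, the last not passing. With background subtraction as well they were 0.755, 0.686 and 0.308.

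Blood cell markers were higher beside these chains. Granulocyte markers summed to 3743 to 7774 in WT and 19438 to 47641 in Mmp13-/-, with 8 of 8 higher. Pan-leukocyte markers summed to 1419 to 2419 in WT and 3268 to 6010.2 in Mmp13-/- (4 of 5 higher), and macrophage markers to 3104 to 3238 in WT and 4399 to 5844 in Mmp13-/- (2 of 6 higher). B cell markers summed to 169 to 334 in WT and 824 to 1097 in Mmp13-/- (5 of 5 higher) and T cell markers to 25.5 to 59.9 in WT and 222 to 253 in Mmp13-/- (4 of 5 higher). Erythroid markers summed to 14789.5 to 23647 in WT and 43789 to 84344 in Mmp13-/- (5 of 5 higher). After GC correction the counts higher were 8 of 8 for granulocytes, 5 of 5 pan-leukocyte, 6 of 6 for macrophages, 5 of 5 for B cells, 3 of 5 for T cells and 5 of 5 erythroid. As with Itgam and Itgb2, the granulocyte sum was lowest among Mmp13-/- in sample 6 (19438). The pan-leukocyte, macrophage, B cell, platelet, erythroid, skeletal muscle and odontoblast sums were lowest there too, so this is not particular to granulocytes. The T cell sum was highest in sample 6 (253). The part of these cells in the changes of the leukocyte chains was not tested.

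**Figure D5:**
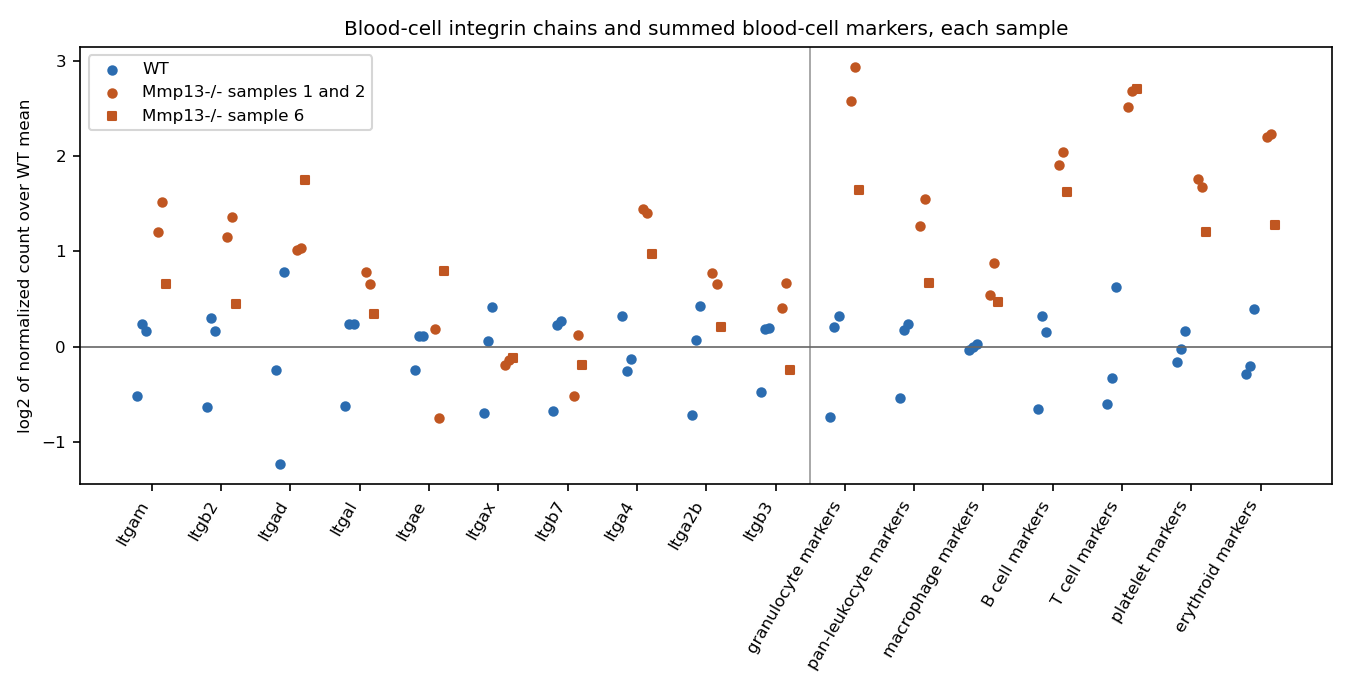
Log2 of the normalized count over the WT mean for 10 integrin chains used by blood cells (left of the line) and for summed blood cell markers (right), in WT (blue) and Mmp13-/- samples 1 and 2 (orange circles) and 6 (orange squares). Itgam, Itgb2 and the granulocyte, B cell and platelet markers lie above WT in every Mmp13-/- sample, and Itgax and Itgb7 overlap WT.

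Among the receptors outside the integrins, Ddr1, Dag1 and Sdc4 were lower both with and without the GC correction. Ddr1, the epithelial collagen receptor kinase, was 2263, 2887 and 2608 in the 3 WT samples against 966, 737 and 919 in Mmp13-/-. The highest Mmp13-/- sample was far below the lowest WT sample, and the log2 fold change was -1.57 ± 0.16 (edgeR adjusted p 0.000115), or -0.51 ± 0.13 with the GC correction (edgeR adjusted p 0.0162). Ddr2, the mesenchymal receptor for fibrillar collagen, did not pass (0.25 ± 0.19, edgeR adjusted p 0.303, or 0.04 ± 0.13 with the correction).

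Dag1 was 6034, 6992 and 5755 in the 3 WT samples against 2689.6, 2904 and 2325 in Mmp13-/-, without overlap. Its log2 fold change was -1.25 ± 0.16 (edgeR adjusted p 0.000283), and -0.73 ± 0.11 with the correction (edgeR adjusted p 0.00192). Cd44, which binds hyaluronan, was higher at 0.55 ± 0.16 (edgeR adjusted p 0.0148) and stood at 0.29 ± 0.12 with the correction (edgeR adjusted p 0.0868). Without any 1 sample other than Mmp13-/- sample 6 it did not pass (edgeR adjusted p up to 0.127).

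Of the syndecans 3 were lower and 1 was higher (background 24.3% and 27.3%). After GC correction 1, Sdc4, was lower and 0 were higher (background 13.1% and 23.8%). Sdc3, best known from neurons and muscle, was 10164, 9585 and 7197 in the 3 WT samples against 3380.3, 3904 and 3180.5 in Mmp13-/-, with a log2 fold change of -1.36 ± 0.19 (edgeR adjusted p 0.00035). Sdc1, the epithelial and plasma cell syndecan, was 6760.4, 10669 and 10766 in the 3 WT samples against 4950.5, 3672 and 4399.9 in Mmp13-/-, with -1.11 ± 0.22 (edgeR adjusted p 0.00233). After the correction these were at -0.38 ± 0.16 and -0.38 ± 0.18 (edgeR adjusted p 0.0905 and 0.141).

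Sdc4, the focal adhesion syndecan, was 4186, 5176 and 5578 in the 3 WT samples against 3032, 3105 and 2914 in Mmp13-/-. Its change was -0.72 ± 0.16 (edgeR adjusted p 0.00415) and it passed after the correction too (-0.49 ± 0.13, edgeR adjusted p 0.018). Sdc2, a mesenchymal syndecan, was higher at 0.70 ± 0.15 (edgeR adjusted p 0.00345) and stood at 0.12 ± 0.12 with it.

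Levels were compared between genes in TPM, which divides by exon length before scaling to the library. In WT the highest receptors were Itgb5 at 204 ± 51.8 TPM (SD, n = 3), Sdc1 at 199.8 ± 58.4, Sdc4 at 158 ± 29.4, Sdc3 at 121 ± 23.5 and Itga11 at 107 ± 25.2. Neighbours in this order differed by less than the larger of their SDs, except Sdc4 and Sdc3. Next came Itgb1 at 82.0 ± 4.58, Dag1 at 79.5 ± 14.2 and Itga6 at 74.2 ± 19.8, within their SD of each other. This order depends on the length used. Itga6 has 9025 bases of exon but 4310 in its longest transcript, against 5131 and 4969 for Itga11. By the longest transcript Itga6 would stand above Itga11. The leukocyte chains lay low, from Itgb2 at 12.1 ± 4.50 to Itgae at 1.07 ± 0.21 and Itgad at 0.512 ± 0.33 TPM.

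The proteins that link integrins to actin and signalling moved in both directions. All 55 genes of the adhesion machinery list were tested, and 17 were higher and 22 lower (30.9% and 40% of the list, background 27.3% and 24.3%), with a median log2 fold change of -0.17 against 0.10 over all genes. Those with the smallest adjusted p that were higher were the syndecan-binding syntenin Sdcbp (2.08 ± 0.16), the leukocyte Rac activator Dock2 (1.57 ± 0.19), the integrin-linked kinase partner Lims1 (1.32 ± 0.18), the adaptor Nck1 (0.97 ± 0.16) and the talin-recruiting GTPase Rap1b (0.92 ± 0.16). Those lower were the paxillin relative Tgfb1i1 (-1.65 ± 0.16), Git1 (-1.46 ± 0.14), the kinase Src (-1.25 ± 0.14), the scaffold Bcar1 (-1.22 ± 0.14) and tensin Tns1 (-1.39 ± 0.17), all log2 fold changes with SE. Their edgeR adjusted p ranged from 3.73e-05 for Sdcbp to 0.00136 for Rap1b. After GC correction 15 were higher and 8 lower, and these shares, 27.3% and 14.5%, lay near the background of 23.8% and 13.1%. Nck1, Rap1b, Src and Bcar1 no longer passed.

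Among matrix and cell-surface ligands, several of mineralized matrix were higher, and several of basement membrane and several fibrillar collagens were lower. Of 41 ligand genes tested from a list of 42 (Madcam1 was below the filter), 7 were higher and 20 lower (17.1% and 48.8%, background 27.3% and 24.3%), with a median log2 fold change of -0.39. Spp1, osteopontin, an RGD ligand of alpha v, was 1137, 1033 and 814 in the 3 WT samples against 8747, 16912 and 8739 in Mmp13-/- (3.53 ± 0.30, edgeR adjusted p 5.29e-05). Postn, periostin, another ligand of alpha v chains, was 13002, 15211 and 16174 in the 3 WT samples against 81035, 117177 and 92224 in Mmp13-/- (2.71 ± 0.25, edgeR adjusted p 7.86e-05). Vcam1, the counter-receptor of alpha4, was 190.5, 254 and 272 in the 3 WT samples against 896, 1069 and 866 in Mmp13-/- (1.98 ± 0.18, edgeR adjusted p 6.23e-05). None of the 3 overlapped between genotypes.

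Mepe and Ibsp, RGD proteins of mineralized matrix, were higher at 2.35 ± 0.17 and 1.56 ± 0.20 (edgeR adjusted p 3.51e-05 and 0.000233). All 5 of these ligands also passed with the GC correction, at 3.11 for Spp1, 2.61 for Mepe, 1.38 for Ibsp, 1.24 for Vcam1 and 1.23 for Postn. The lower ones with the smallest adjusted p were laminin alpha5 Lama5 (-1.37 ± 0.14), collagen IV Col4a2 (-1.45 ± 0.17) and Col4a1 (-1.46 ± 0.17), perlecan Hspg2 (-1.63 ± 0.20) and agrin Agrn (-1.19 ± 0.16), with an edgeR adjusted p from 0.000113 to 0.000324. With the correction they went to -0.32, -0.37, -0.55, -0.54 and -0.37 in that order, and each still passed, but with background subtraction added Lama5, Col4a2 and Agrn did not (edgeR adjusted p 0.0505, 0.0509 and 0.0577). Col1a1, the collagen I alpha1 chain and a ligand of the collagen receptors above, was named after its values were seen because its fall was the largest of the list, at -2.16 ± 0.34 (edgeR adjusted p 0.000668), and after GC correction -1.17 ± 0.25 (edgeR adjusted p 0.00877). Other fibrillar collagens were also named after their values were seen. Col3a1, Col5a1 and Col5a2 were at -1.58, -1.66 and -1.21. With the correction they were at -1.07, -0.71 and -0.95, all passing. Col1a2 and Col2a1 were lower at -1.26 and -1.29 and no longer passed with it. After GC correction the list had 9 higher and 9 lower, 22% each (background 23.8% and 13.1%).

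In the list of the dystroglycan complex and the enzymes that glycosylate it, 2 of 20 genes were higher and 10 lower (10% and 50%, background 27.3% and 24.3%), with a median log2 fold change of -0.51. After GC correction 0 were higher and 10 lower (50%, background 13.1% lower). Among the lower genes were Nos1, the nitric oxide synthase held at the muscle membrane, at -1.85 ± 0.23 (edgeR adjusted p 0.00021), and the glycosyltransferase Pomgnt1 at -1.13 ± 0.15 (edgeR adjusted p 0.000286). Both passed with the correction, at -1.26 and -0.46. Sgce, a sarcoglycan, was higher at 0.94 ± 0.16 (edgeR adjusted p 0.000913), and with the correction was at -0.06, not passing. The fall of skeletal muscle markers accompanied this list, and its part was not tested.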

How the data were processed

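Pulp RNA of 3 WT and 3 Mmp13-/- mice, labelled as biological replicates, was sequenced on an Illumina system and quantified in Strand NGS. The submitters' processing notes name mm10 and DESeq, and the aligner is not given in the sources used here. The deposited table holds estimated counts per gene, made by the authors, and log2 values that the authors normalized with size factors and centred on each gene's median. Samples were grouped by genotype as labelled. The spread between samples, which includes counting error, was used as the error.

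Rounded estimated counts entered edgeR 4.0.16 under R 4.3.3 (quasi-likelihood test, TMM factors, edgeR's low-count filter by genotype, Benjamini-Hochberg adjustment over 24534 genes). For normalized counts, each count was scaled from its library's TMM-adjusted total to the mean of these totals. TPM was computed from the counts and exon length. GC correction used a loess fit (span 0.4) to genes with mean log2 CPM above 3 as offsets. Background was subtracted by exon length, at the rate over odorant and vomeronasal receptor genes. Ratios of chains were compared by exact permutation in scipy 1.17.1. GENCODE M21 (GRCm38) gave length, position and GC content for 99.8% of identifiers, and RefSeq the promoters of 25 receptors. Satellite-matching genes share over 50% of their 16-mers with the gene of highest count in any sample, and no satellite sequence was compared. The fits were tested on simulated data. Alternatives, 18 in all, included DESeq2 1.42.0, limma 3.58.1 on the deposited log2 values, other factors and filters, and each sample left out. Of the pathway lists, the 5 genes per direction with the smallest adjusted p and no overlap between genotypes were named, except some genes that are not reported here. The receptors and all lists were chosen with earlier results of these data known.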

Additional observations from a re-analysis of the deposited data

How the results depend on the processing

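No paired analysis was possible because the genotypes share only the replicate number 2. Median-of-ratios (RLE) factors kept the direction and call of all 34 receptors, and DESeq2 of 31. Receptors lower fell to 8 with total counts and to 5 with GC correction, with or without background subtraction. Calls over all genes fell as well, from 12665 of 24534 to 9957 with total counts and 9049 with GC correction. With both corrections they were 7816 of 22856. Receptors lower over 2-fold went to 5 with upper-quartile factors, 5 with background subtraction and 0 with GC correction, alone or with that subtraction. Receptors higher over 2-fold went to 3 with factors taken without satellite and the 10 most abundant genes, with DESeq2 and with limma, and receptors higher to 6 with limma. Adhesion genes lower went to 12 with total counts, 8 with GC correction and 9 with both corrections, and those higher to 11 with limma. Ligands lower went to 13, 9 and 7 under total counts, GC correction and both. Dystroglycan complex genes higher went to 5 with upper-quartile factors, 1 with total counts, no filter, DESeq2 or limma, and 0 with GC correction or both.

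Leaving out 1 sample gave 7 to 10 receptors higher (7 without WT sample 2), 11 to 13 lower, 3 to 5 higher over 2-fold (3 without WT sample 2 or Mmp13-/- sample 2) and 8 to 9 lower over 2-fold. It gave 12 to 18 adhesion genes higher and 18 to 23 lower, 5 to 7 ligands higher and 17 to 20 lower, and 1 to 3 dystroglycan genes higher (1 without WT sample 4 or 5, or Mmp13-/- sample 1 or 2) and 9 to 11 lower. Calls over all genes then ranged from 10915 of 26952 (without WT sample 4) to 12864 of 26939 (without WT sample 2). The log2 ratio of Itgb2 to its partners differed by 0.055 to 0.22, and by 0.14 with the longest transcript, both chosen after seeing the data.

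Signs turned for 8 receptors, and of their turned values only that of Itgb7 with GC correction passed the test. With GC correction, and with both corrections, log2 fold changes were 0.20 and 0.20 for Itga10, 0.074 and 0.071 for Itga5, -0.33 and -0.29 for Itgav, -0.19 and -0.27 for Itgb8, 0.40 and 0.40 for Itga9, 0.29 and 0.15 for Itgax and 0.78 and 0.76 for Itgb7. With upper-quartile factors, Itga9, Itgax and Itgb7 were at 0.17, 0.062 and 0.037. Itga9 was at 0.087 with total counts, 0.091 with at least 10 counts in every sample and 0.091 with background subtraction, and Itgav at -0.018 with factors without satellite and abundant genes, -0.034 without a filter and -0.011 with limma or the study's procedure. Leaving out 1 sample took Itgav to between -0.10 and 0.23, Itga9 to between -0.27 and 0.037, Itgae to between -0.19 and 0.44 and Itgax to between -0.48 and 0.039. The median over all genes shifted by 0.21 with upper-quartile factors and by 0.11 with total counts. The cause of these changes was not tested.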
